A study of Rattus norvegicus with 6 samples.

Results

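AP-1 is a family of transcription factors, each a pair of proteins that hold together through a leucine zipper and bind DNA through a basic region beside it. The 10 genes described here are its JUN subunits (Jun, Junb and Jund), its FOS subunits (Fos, Fosb, Fosl1 and Fosl2) and relatives that pair with them or compete with them (Atf3, Batf3 and Jdp2). They were taken by gene symbol, and all 10 were found among the 29468 gene symbols of the tables. Schwann cell precursors (SCPs) came from sciatic nerves and brachial plexus of LEWIS rat embryos at embryonic day 14, without treatment. Repair Schwann cells (RSCs) came from the distal part of cut sciatic nerves in 10 weeks old LEWIS rats, 1 week after the cut. All animals were wild type by the labels, whereas the study's methods describe RFP transgenic LEWIS rats for the cells it grafted and do not say which animals gave the RNA. Each group had 3 samples, and the cells were freed from the nerves with enzymes, RSCs with more collagenase and for longer than SCPs. The labels do not say whether a sample pooled several animals, so the p-values below measure the spread between these samples.

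JUN proteins bind DNA as pairs with one another or with FOS proteins, whereas FOS proteins need a partner such as a JUN protein. Several of these genes are immediate-early genes, which switch on within minutes of a stimulus without new protein synthesis. In Schwann cells c-Jun, the product of Jun, is known as a regulator of the repair cell state after nerve injury and as an opponent of the myelin programme, and ATF3 is widely used as a marker of nerve injury.

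Expression was read in FPKM, which counts fragments relative to transcript length and to all mapped fragments. The tables listed named reference transcripts and, apart from these, 8815 to 9119 unnamed transcripts in RSCs and 11355 to 12417 in SCPs, which Cufflinks assembled separately in each sample. Unnamed transcripts held 18.6% to 23.4% of all FPKM in RSCs and 26.1% to 31.9% in SCPs, so named transcripts alone leave out more of the SCP signal. Each gene therefore had 2 estimates, the sum over its named transcripts and the same sum with the unnamed transcripts that overlap it added. Absolute depth is unknown from these tables, and relative depth was 0.79 to 0.84 of the deepest sample in RSCs and 0.88 to 1.00 in SCPs. The filter, an average of 1 FPKM or more over the 6 samples, left 13003 genes, of which 40.5% had a limma p under 0.01 on the log2(FPKM + 1) scale, the call used below, with 18.1% higher in RSCs and 22.4% in SCPs. Of all tested genes 11.6% were called and changed over 4-fold, or 2 on the log2 scale, and 7.81% were called and over 4-fold higher in RSCs. In the second estimate 57.3% of 14022 genes were called, 23.2% higher in RSCs and 34.2% in SCPs. Sox10, a transcription factor that defines the Schwann cell lineage, stood at 175 to 181 FPKM in SCPs and 143 to 149 in RSCs, so both groups carried it. Other cells were present too. The summed FPKM of 16 leukocyte markers was 25.2 to 63.7 in SCPs and 2868 to 3593 in RSCs, that of 9 fibroblast markers was 643 to 1023 and 5421 to 8029, and that of 10 erythroid markers was 31502 to 135421 in SCPs and 1869 to 2475 in RSCs.

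All 10 AP-1 genes passed the filter on low values in both estimates. From named transcripts alone 8 of 10 were called, each higher in RSCs, beside 18.1% of all tested genes, and 6 of the 8 were over 4-fold, beside 7.81%. At a limma adjusted p under 0.01 the named transcripts gave 6 of 10, beside 4105 of all 13003 tested genes in either direction. With unnamed transcripts all 10 were called higher in RSCs, beside 23.2% of all tested genes, and again 6 were over 4-fold, beside 8.57%. The median log2 fold change of the 10 genes was 2.25 from named transcripts and 2.84 with unnamed ones, where the median of all tested genes was -0.17 and -0.24. No AP-1 gene was called higher in SCPs under either estimate. All RSC samples were above all SCP samples for 8 of 10 genes by named transcripts, where 58.6% of all tested genes had groups that did not overlap and 24.9% had RSCs on top. With unnamed transcripts this held for 10 of 10, beside 72.4% and 28.8%. Cufflinks marked 12 of the 64 named transcript values above 0 at these genes as LOWDATA, its mark for loci too shallow or too complex to estimate well, among them Fos in all 3 RSC samples and Jun in RSC replicates 2 and 3. A further 6 of the 64 lay outside their own Cufflinks interval, namely Junb in all 3 RSC samples, Jund in RSC replicates 2 and 3 and Jun in SCP replicate 2. In bulk RNA, fewer cells of a type and less RNA per cell cannot be told apart, and the leukocyte and fibroblast sums given above were higher in the same samples. Their part in the AP-1 values was not tested. Age, injury and the length of dissociation differ between the groups in the same way and cannot be told apart.

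**Figure D1:**
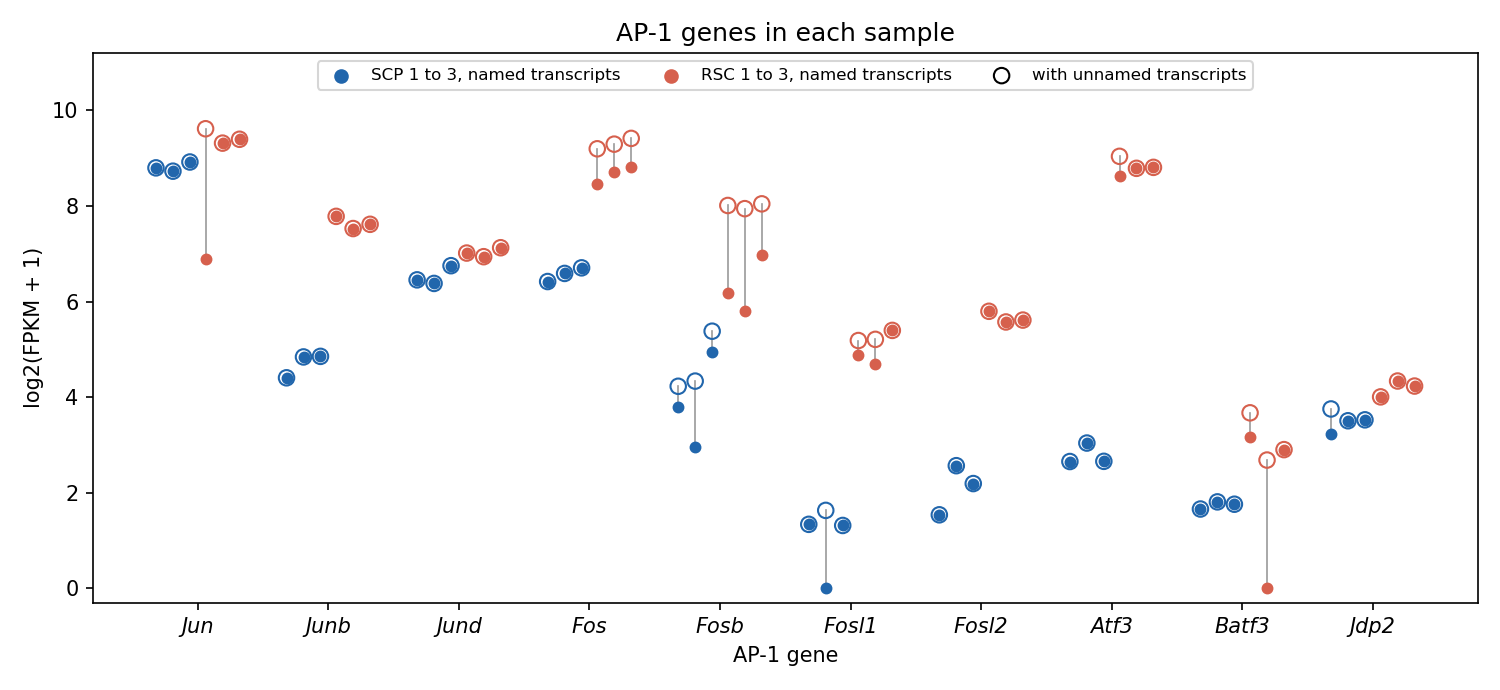
Level of each AP-1 gene in each sample on the log2(FPKM + 1) scale, SCPs in blue and RSCs in red, with filled points for named transcripts and open circles once unnamed transcripts were added. The longest gaps between both estimates are those of Jun in RSC replicate 1 (118 and 783 FPKM) and Batf3 in RSC replicate 2 (0 and 5.42 FPKM).

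The JUN genes lay far apart in level in SCPs and closer together in RSCs. Jun, on chromosome 5 at 114011184 to 114014277 of rn6, has a single annotated transcript of 3094 bases that equals its span, as do Junb and Jund, so all 3 are annotated as unspliced. Jun was read at 444, 423 and 483 FPKM in SCP replicates 1 to 3 and at 118, 635 and 672 FPKM in RSC replicates 1 to 3. RSC replicate 1 lay below every SCP sample and the other RSC replicates lay above them, so the groups overlapped. With a log2 fold change of -0.28 and a standard error of 0.68 (limma adjusted p = 0.76), Jun was not called.

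In RSC replicate 1, an unnamed transcript of 2194 bases at 114012098 to 114014291 of chromosome 5 carried 665 FPKM. It overlaps the named Jun transcript and held 84.9% of the Jun signal of that sample. No other sample had an unnamed transcript at Jun. Counted with it, RSC replicate 1 stood at 783 FPKM, and all 3 RSC samples were above all 3 SCP samples. The SCP mean was 449.8 ± 30.7 FPKM and the RSC mean became 697 ± 76.9 FPKM (SD, n = 3 each), a ratio of 1.55 and a log2 fold change of 0.63 (standard error 0.10, limma adjusted p = 0.0015). Leaving out RSC replicate 1 altogether gave 0.54 from named transcripts, at an unadjusted limma p of 0.0016. The direction for Jun thus turned on 1 of 6 libraries. By either estimate Jun was already among the most abundant genes of both groups, at rank 163 of 13003 in SCPs and 166 in RSCs by named transcripts.

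Junb, whose product is a weaker activator than c-Jun at many sites and can oppose it, rose in RSCs. It lies on chromosome 19 at 26092972 to 26094756 and had no unnamed transcript, so both estimates share its values. Junb stood at 20.2, 27.6 and 27.9 FPKM in SCPs and at 219, 183 and 195 FPKM in RSCs. The groups lay far apart, with the lowest RSC sample several times the highest SCP sample. The means differed 7.89-fold, a log2 difference of 2.94 after adding 1 (standard error 0.15, limma adjusted p = 5.9e-05).

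Jund, the JUN gene that many resting cells express steadily, rose by much less than Junb. It lies on chromosome 16 at 20485028 to 20486707 and was read at 86.6, 82.2 and 107 FPKM in SCPs and at 128, 122 and 139 FPKM in RSCs. The groups did not overlap, but SCP replicate 3 came close to RSC replicate 2. Its log2 fold change was 0.50 (standard error 0.12, limma adjusted p = 0.016). The call did not survive the loss of most single samples, since leaving out any sample other than SCP replicate 3 raised the unadjusted limma p to between 0.012 and 0.023. Quantile normalization gave 0.38 at an unadjusted limma p of 0.03.

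Junb and Jund thus had opposite ranks in the groups. Jund was above Junb in each SCP sample and Junb was above Jund in each RSC sample, with a Junb to Jund ratio of 0.277 ± 0.0535 in SCPs and 1.54 ± 0.153 in RSCs (SD, n = 3 each). The windows upstream of both genes are shown because they are unspliced genes of one family whose order of level was reversed between the groups. Promoter sequences come from RefSeq on the build GRCr8, other than the rn6 of the tables, and 7 of the 10 genes matched, without Jun, Fos and Atf3. Each line gives the 250 bases before the annotated start, 5′ to 3′ on the gene's strand, and capitals mark the motif that was found.
Junb, chr19:40080876-40081125 on the plus strand: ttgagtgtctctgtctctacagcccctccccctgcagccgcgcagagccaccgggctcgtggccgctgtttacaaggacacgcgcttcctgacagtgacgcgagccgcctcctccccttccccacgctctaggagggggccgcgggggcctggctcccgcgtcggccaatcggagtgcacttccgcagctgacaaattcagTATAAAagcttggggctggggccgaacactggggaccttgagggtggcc
Jund, chr16:18769772-18770021 on the minus strand: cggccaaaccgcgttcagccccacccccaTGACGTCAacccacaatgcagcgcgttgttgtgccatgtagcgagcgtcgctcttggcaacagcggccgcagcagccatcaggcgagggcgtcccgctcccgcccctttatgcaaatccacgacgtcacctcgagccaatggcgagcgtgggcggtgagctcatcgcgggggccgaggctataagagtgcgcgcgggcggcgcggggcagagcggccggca
The Jund window holds the cAMP response element TGACGTCA, a palindrome, starting 221 bases before the start, and the Junb window holds the TATA box letters TATAAA starting 49 bases before it. Among all 33469 promoter windows, TGACGTCA was found in 1.83% and TATAAA on either strand in 14.2%. Of the 7 matched genes, 1 held TGACGTCA (Jund) and 2 held TATAAA (Junb, and Fosb on the other strand). The AP-1 site, TGACTCA or TGAGTCA, was in 4.63% of all windows and in 0 of the 7, and the CArG box of serum response factor in 1.64% and in 0 of the 7. TGACGTCA contains neither form of the AP-1 site. Only exact matches were counted, so near forms such as tataag and cgacgtca in the Jund window were left out. A match describes letters and not a bound site, and the GC content of the windows was 66% for Junb and 68.4% for Jund.

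Every FOS gene was higher in RSCs under both estimates, and all 4 were over 4-fold. Fos encodes the classic immediate-early partner of c-Jun and lies on chromosome 6 at 109300433 to 109303299. Named Fos was at 84.5, 95.2 and 103 FPKM in SCPs and at 353, 417 and 447 FPKM in RSCs. The groups were well apart, and the replicates of each were close together. Fos rose by 2.09 on the log2 scale (standard error 0.12, limma adjusted p = 8.1e-05). In RSCs alone Cufflinks assembled a further Fos transcript, of 2087 to 2333 bases against 1589 for the named one, which carried 33.5% to 39.7% of the Fos signal. Both Fos estimates exceeded 4-fold, and the second put RSCs at 585, 626 and 681 FPKM and the log2 difference at 2.73 (standard error 0.10, limma adjusted p = 3.8e-06).

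Fosb, which encodes another FOS protein known for a long-lived short form, was the gene whose reads were spread over most transcripts. It lies on chromosome 1 at 80214472 to 80221931. Named Fosb was at 12.9, 6.71 and 29.7 FPKM in SCPs and at 71.1, 54.5 and 125 FPKM in RSCs. Replicate 3 was the highest of its group on each side, and the groups did not overlap. Fosb rose by 2.42 on the log2 scale (standard error 0.56, limma adjusted p = 0.015), and the call was lost without SCP replicate 1, SCP replicate 2, RSC replicate 1 or RSC replicate 3, where unadjusted limma p was 0.012 to 0.019 and the log2 fold change as low as 1.94. Unnamed transcripts were found at Fosb in all 6 samples, with 26.9% to 65.0% of its signal in SCPs and 52.4% to 77.8% in RSCs. Once they were added, Fosb stood at 17.7, 19.2 and 40.6 FPKM in SCPs and at 257, 245 and 263 FPKM in RSCs. The RSC samples then lay within a narrow band, while SCP replicate 3 stayed above its group. The second log2 fold change was 3.35 (standard error 0.30, limma adjusted p = 0.00011), and no sample left out ended that call.

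Fosl1 and Fosl2 encode FRA1 and FRA2, FOS proteins that lack the strong activation domain of c-Fos. Both were low in SCPs and higher in RSCs. Fosl1, on chromosome 1 at 220826560 to 220835066, had SCP values of 1.53, 0 and 1.49 FPKM and RSC values of 28.5, 24.7 and 41.1 FPKM by named transcripts. The 0 of SCP replicate 2 went with an unnamed transcript of 1195 bases at 2.09 FPKM, so the locus was not without reads. With unnamed transcripts, SCPs stood at 1.53, 2.09 and 1.49 FPKM and RSCs at 35.3, 36.0 and 41.1 FPKM, a ratio of means of 22.01. The log2 fold changes were 4.10 (standard error 0.43, limma adjusted p = 0.00068) and 3.84 (standard error 0.14, limma adjusted p = 3.7e-06).

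Fosl2, on chromosome 6 at 25598936 to 25616995, stood at 1.90, 4.92 and 3.56 FPKM in SCPs and at 54.5, 46.6 and 47.9 FPKM in RSCs. It had no unnamed transcript, and no RSC sample came near an SCP sample. Its means differed 14.3-fold, or by 3.56 on the log2(FPKM + 1) scale (standard error 0.27, limma adjusted p = 0.00023). Fosl2 was at rank 9259 of 13003 by SCP level and rank 1583 by RSC level.

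Atf3, a stress-induced gene whose protein forms pairs with JUN proteins and often represses, had the largest log2 fold change of the 10 genes by both estimates. It spans 109817892 to 109849632 of chromosome 13. Its SCP values were 5.28, 7.21 and 5.30 FPKM and its RSC values 393, 441 and 447 FPKM. Each group was tight, and the whole SCP group was a small fraction of any RSC sample. The ratio of means was 71.9 and the log2 fold change 5.96 (standard error 0.13, limma adjusted p = 7.4e-06), which ranked 52 among all 13003 log2 fold changes from the top. RSC replicate 1 had a further unnamed transcript at Atf3 with 25.1% of its signal, which lifted it to 525 FPKM and the log2 fold change to 6.10 (standard error 0.14, limma adjusted p = 1.1e-06). Atf3 moved from rank 7644 in SCPs to rank 183 in RSCs, near Jun at 166. With unnamed transcripts the RSC ranks were 184 for Atf3 and 121 for Jun among 14022 genes.

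Batf3 lies 92.8 kb from Atf3 on the same chromosome, at 109713376 to 109725126, and behaved otherwise. BATF3 is best known from dendritic cells, where it pairs with JUN proteins. Named Batf3 was at 2.16, 2.50 and 2.38 FPKM in SCPs and at 7.96, 0 and 6.47 FPKM in RSCs. RSC replicates 1 and 3 were above SCPs and RSC replicate 2 was listed at 0, so the groups overlapped. Its log2 fold change was 0.28 (standard error 0.85, limma adjusted p = 0.81), and without RSC replicate 2 it was 1.29 with an unadjusted limma p of 0.002. In RSC replicate 2 all of the Batf3 signal was in an unnamed transcript of 1889 bases. With such transcripts RSCs stood at 11.7, 5.42 and 6.47 FPKM, all above SCPs, and the log2 fold change was 1.34 (standard error 0.27, limma adjusted p = 0.0041). Its level was low throughout, and with a pseudocount of 0.1 in place of 1 the named value was -0.49.

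Jdp2, whose product dimerizes with JUN proteins and mostly represses, lies 161.6 kb from Fos on chromosome 6, at 109464908 to 109505440. It was at 8.43, 10.3 and 10.5 FPKM in SCPs and at 15.0, 19.2 and 17.8 FPKM in RSCs. All RSC samples were above all SCP samples, though by less than for its neighbour Fos. Jdp2 rose by 0.77 on the log2 scale (standard error 0.15, limma adjusted p = 0.0082), and leaving out RSC replicate 2 or RSC replicate 3 raised the unadjusted limma p to 0.011. An unnamed transcript raised SCP replicate 1 to 12.5 FPKM and lowered the log2 fold change to 0.60 (standard error 0.13, limma adjusted p = 0.0067).

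**Figure D2:**
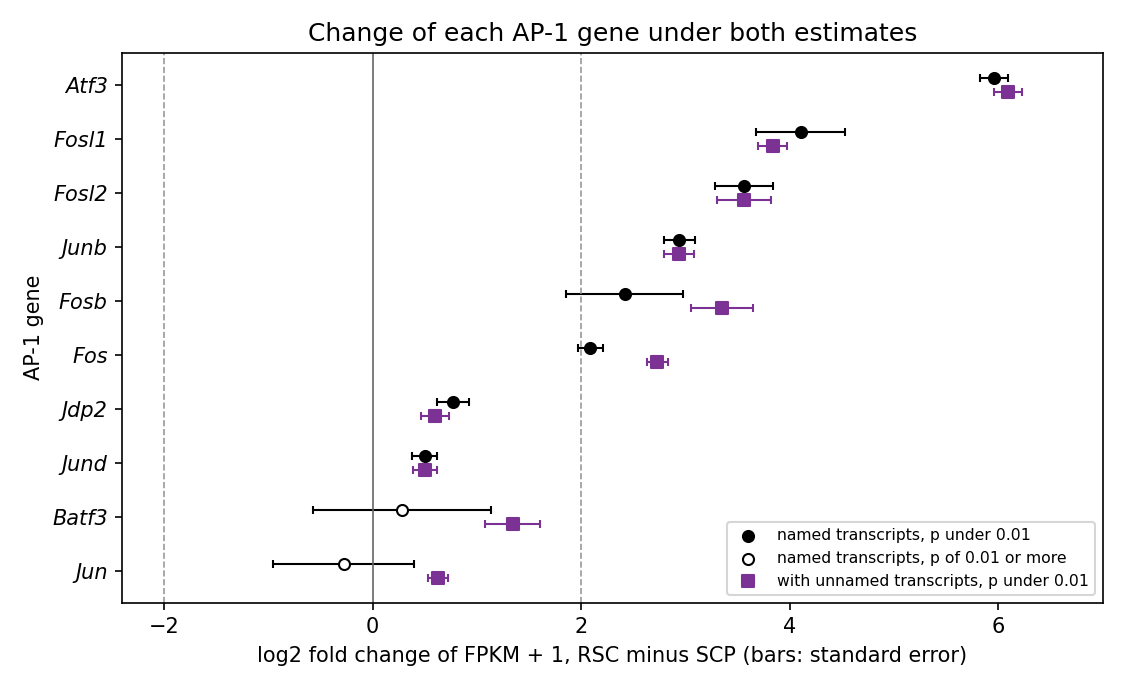
Log2 fold change of each AP-1 gene, RSC minus SCP on the log2(FPKM + 1) scale, with circles for named transcripts (open where p was 0.01 or more), squares once unnamed transcripts were added, bars for the standard error and dashed lines at 4-fold. Atf3 is farthest to the right at 5.96 and 6.10, and Jun is the gene whose sign differs between both estimates, -0.28 and 0.63.

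Because FPKM is per length, the genes can be set beside each other within a sample. The summed FPKM of the 10 genes was 667, 659 and 774 in SCPs and 1388, 1943 and 2138 in RSCs by named transcripts. With unnamed transcripts it was 676, 674 and 785 in SCPs and 2614, 2360 and 2510 in RSCs. The RSC samples exceeded the SCP samples in both, and they were closer to one another in the second.

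The make-up of that sum differed as well. Jun alone was 64.3% ± 2.04 of it in SCPs and 24.2% ± 13.6 in RSCs by named transcripts (SD, n = 3 each), with 8.52%, 32.7% and 31.4% in RSC replicates 1 to 3. With unnamed transcripts Jun was 63.3% ± 2.1 in SCPs and 27.9% ± 1.80 in RSCs. The share of Jun was lower in each RSC sample than in any SCP sample by both estimates, while its FPKM with unnamed transcripts was higher. By the second estimate the 4 FOS genes rose from 17.5% ± 1.72 to 39.1% ± 2.98 of the sum, and Atf3, Batf3 and Jdp2 together from 2.75% ± 0.372 to 19.9% ± 1.17, of which Atf3 alone made 18.9% ± 1.14 in RSCs. The 3 JUN genes went from 79.7% ± 1.49 to 41.1% ± 1.90.

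Ratios between members show the same within samples. By the second estimate the Fos to Jun ratio was 0.210 ± 0.0177 in SCPs and 0.915 ± 0.146 in RSCs. The Atf3 to Jun ratio went from 0.0133 ± 0.00328 to 0.676 ± 0.0153, and the Junb to Jun ratio from 0.0562 ± 0.0101 to 0.286 ± 0.00569. Each of these was higher in every RSC sample than in every SCP sample. The Jund to Jun ratio did not separate the groups, at 0.195, 0.194 and 0.221 in SCPs and 0.164, 0.191 and 0.206 in RSCs.

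**Figure D3:**
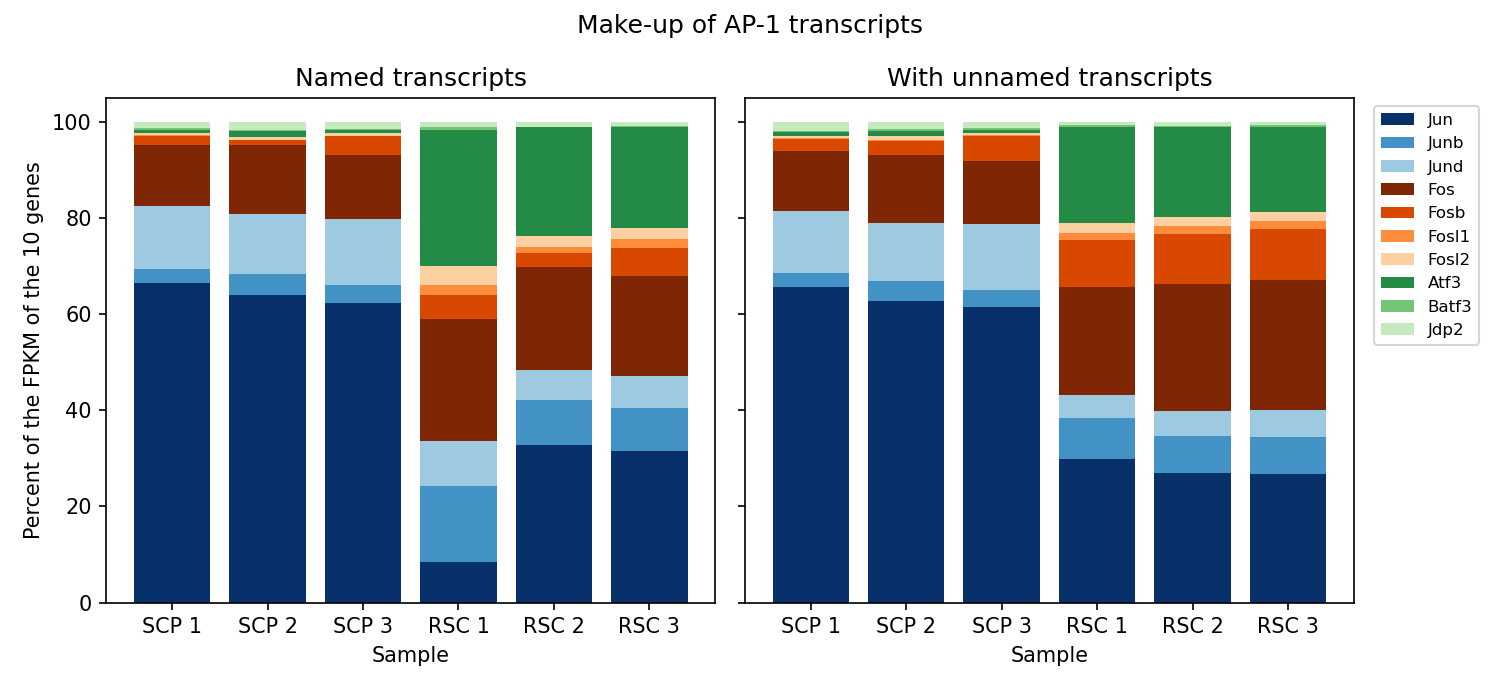
Percent of the summed FPKM of the 10 AP-1 genes held by each gene in each sample, with named transcripts on the left and unnamed transcripts added on the right, JUN genes in blue, FOS genes in red to orange and the others in green. Jun fills 63.3% of the SCP bars and 27.9% of the RSC bars on average on the right, and Atf3 is barely visible in SCPs.

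The order of the genes by mean level in SCPs began with Jun, then Fos and Jund, whose samples overlapped. By named transcripts Junb, Fosb, Jdp2 and Atf3 came next, of which Fosb overlapped each of the others and these did not overlap each other. Fosl2 and Batf3, which overlapped, and then Fosl1 followed. In RSCs, with unnamed transcripts, the order was Jun and Fos, which overlapped, then Atf3, Fosb, Junb, Jund, Fosl2, Fosl1, Jdp2 and Batf3, each apart from the next. By named transcripts the RSC order was less certain. Jun, whose RSC values ran from 118 to 672 FPKM, overlapped Atf3, Fos, Junb, Jund and Fosb. Atf3 and Fos overlapped, and Fosb overlapped both Jund and Fosl2, which did not overlap each other. With unnamed transcripts Atf3 went from rank 7 among the 10 in SCPs to rank 3 in RSCs.

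For the members with the largest changes, the nearest gene by pattern over the 6 samples was found from log2(FPKM + 1) values centred on each gene's mean, with Euclidean distance as the measure. The patterns are a contrast of 3 samples with 3, so many genes can come close, and nothing follows from nearness about function. The closest of the 5 pairs was Junb with Csrnp1, at a distance of 0.0737. Csrnp1 stood at 5.04, 7.21 and 6.83 FPKM in SCPs and 61.3, 49.5 and 54.3 FPKM in RSCs. Fosl2 was nearest to Ccl7, a chemokine (distance 0.307), Atf3 to Tspan31 (0.354), which was listed at 0 in all SCP samples, Fosl1 to Rgs16 (0.753) and Fosb to Nav2 (0.793).

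AP-1 proteins also pair with other factors of the basic leucine zipper class. Of 22 such partners tested, 9 were called and higher in RSCs, 0 went the other way, and the median log2 fold change was 0.48. Among all tested genes 18.1% were called higher in RSCs and 22.4% in SCPs. Of the 22 partners 7 were called and over 4-fold higher in RSCs, beside 7.81% of all tested genes. The share called in either direction was 40.9%, beside 40.5%. Ddit3, which encodes the stress factor CHOP, was listed at 0 in all SCP samples and stood at 32.3, 27.1 and 33.1 FPKM in RSCs (limma adjusted p = 2.4e-05). Cebpd, an acute-phase C/EBP factor, was at 1.10, 2.56 and 2.32 FPKM in SCPs and at 65.5, 68.1 and 54.0 FPKM in RSCs (log2 fold change 4.44, limma adjusted p = 6.7e-05). At the lower end, Atf4 of the integrated stress response and the small Maf gene Mafk rose by 0.44 and 1.68 on the log2 scale (limma adjusted p = 0.0089 and 0.00037). With unnamed transcripts 13 of 22 were up and 2 down in RSCs, beside 23.2% of all tested genes up and 34.2% down.

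The kinases that act upstream of AP-1, the JNK, p38 and ERK cascades with their scaffolds, showed no common direction. Of 30 tested, 5 were up and 4 down in RSCs, a called share of 30% beside 40.5% of all genes, and the median was -0.01. Mapk3, which encodes ERK1, was at 110, 123 and 111 FPKM in SCPs and at 341, 315 and 368 FPKM in RSCs (log2 fold change 1.56, limma adjusted p = 7.2e-05). Map3k8, a kinase of inflammatory signalling, rose by 2.06 on the log2 scale from levels under 1 FPKM in SCPs (limma adjusted p = 0.0014). Map2k6, an activator of p38, was at 19.8, 19.2 and 19.2 FPKM in SCPs and at 3.36, 3.83 and 3.26 FPKM in RSCs (log2 fold change -2.19, limma adjusted p = 9.5e-05). Map3k7, which encodes TAK1, had a log2 fold change of -1.02 (limma adjusted p = 0.021). These kinases are controlled mainly by phosphorylation, which RNA does not show. The count was unsteady, with 4 to 9 called when single samples were left out. With unnamed transcripts 22 of 35 tested were called, 11 in each direction, beside 23.2% of all tested genes up and 34.2% down.

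Factors that bind the Fos promoter were called at about the rate of all genes. Of 13 tested, 2 were up and 3 down in RSCs, 38.5% beside 40.5%, with a median of -0.11. Stat3, which carries cytokine signals to the nucleus, rose by 1.10 on the log2 scale (limma adjusted p = 0.0017). Ets1 was at 51.5, 46.8 and 42.4 FPKM in SCPs and at 32.3, 26.5 and 27.0 FPKM in RSCs (log2 fold change -0.69, limma adjusted p = 0.0054). Elk3, a partner of serum response factor, had a log2 fold change of -1.11 (limma adjusted p = 0.00074) by named transcripts and of -0.38 with unnamed ones, where it was not called, at an unadjusted limma p of 0.2.

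The brakes on AP-1, phosphatases of its kinases, ubiquitin ligases of c-Jun and RNA-binding proteins that destabilize immediate-early messages, had 6 of 18 up and 3 down in RSCs, 50% beside 40.5% of all tested genes, with a median of 0.39. Dusp1, a phosphatase of JNK and p38, was at 42.5, 35.5 and 48.0 FPKM in SCPs and at 290.2, 314 and 339 FPKM in RSCs (log2 fold change 2.88, limma adjusted p = 4e-05). Dusp10, with the same substrates, rose by 3.63 on the log2 scale (limma adjusted p = 3e-05). Fbxw7 and Det1, of ligase complexes for which c-Jun is a known substrate, were lower in RSCs, at -0.85 and -1.04 on the log2 scale (limma adjusted p = 0.013 and 0.002). With unnamed transcripts 7 of 20 were called in each direction, beside 23.2% of all tested genes up and 34.2% down.

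Genes long described as AP-1 targets were mostly higher in RSCs. Of 25 tested, 21 were up and 0 down in RSCs, where 18.1% of all tested genes were up, and the median log2 fold change was 3.00. Cd44, a receptor for hyaluronan, was at 0.709, 0.788 and 1.49 FPKM in SCPs and at 82.9, 75.1 and 83.2 FPKM in RSCs (log2 fold change 5.37, limma adjusted p = 2.4e-05). Spp1, which encodes osteopontin, had a log2 fold change of 5.31 (limma adjusted p = 5.5e-05), and at the lower end Ccnd1 and Mmp9 had 1.11 and 1.17 (limma adjusted p = 0.00051 and 0.018). Many of these genes are also expressed by macrophages and other leukocytes, whose markers were higher in RSCs although the study's methods include a plating step meant to remove macrophages and fibroblasts. The share of those cells in this count was not tested.

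Of 19 tested genes known to depend on c-Jun in repair cells, 10 were up and 4 down in RSCs, with a median of 1.15. Among all tested genes 18.1% were up and 22.4% down, and the share down in the list was about that. Shh, which encodes a hedgehog ligand, was listed at 0 in all SCP samples and stood at 13.02, 15.6 and 12.7 FPKM in RSCs (limma adjusted p = 4.9e-05). Lif, a cytokine gene, was at 0, 0 and 0.445 FPKM in SCPs and at 24.7, 24.6 and 28.8 FPKM in RSCs (limma adjusted p = 4.9e-05). The 4 genes on the other side, Cdh2, L1cam, Ncam1 and Igfbp2, include 3 adhesion molecules. Cdh2, which encodes N-cadherin, was at 94.0, 82.2 and 77.1 FPKM in SCPs and at 3.45, 2.32 and 2.46 FPKM in RSCs (log2 fold change -4.52, limma adjusted p = 2.5e-05). L1cam had a log2 fold change of -3.98 by named transcripts, with 2 RSC samples listed at 0 and an unadjusted limma p of 0.0097, and of -1.17 with unnamed ones, at 3.1e-05.

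The myelin genes, which c-Jun is known to oppose, were higher in adult RSCs than in embryonic SCPs. No cells of uninjured adult nerve were among the samples, so the change of myelin genes after injury was not tested. Their relation to c-Jun was not tested either. Of 11 tested, 10 were up and 0 down in RSCs, where 18.1% of all tested genes were up, with a median of 2.60. Mbp, which encodes myelin basic protein, was at 2.55, 7.73 and 8.26 FPKM in SCPs and at 282, 241 and 225 FPKM in RSCs (log2 fold change 5.24, limma adjusted p = 0.0002). Pllp had a log2 fold change of 4.77 (limma adjusted p = 3.6e-05), and Cnp had 1.15 (limma adjusted p = 0.0025).

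A list of 24 genes known to respond to enzymatic dissociation of tissue, kept apart from the AP-1 genes, had 17 up and 1 down in RSCs, beside 18.1% and 22.4% of all tested genes, with a median of 1.76. With unnamed transcripts 23 were up and 0 down, beside 23.2% and 34.2% of all tested genes. Hspb1, a small heat shock protein gene, was at 7.58, 11.1 and 8.31 FPKM in SCPs and at 332, 385 and 445 FPKM in RSCs (log2 fold change 5.29, limma adjusted p = 2.2e-05). Nfkbia, which encodes the NF-kB inhibitor IkB-alpha, had a log2 fold change of 4.04 and Rhob of 0.49 (limma adjusted p = 4.6e-05 and 0.013). With unnamed transcripts Rhob was not called, at a log2 fold change of 0.14 and an unadjusted limma p of 0.24. Egr3 was called higher in SCPs by named transcripts, since it was listed at 0 in all RSC samples, but with unnamed transcripts it was at 11.4, 9.51 and 7.46 FPKM in RSCs against 1.25, 2.79 and 3.20 in SCPs (log2 fold change 1.65, at an unadjusted limma p of 0.00075). Fos, Junb, Atf3 and Fosb are themselves such response genes. The dissociation list moved in the same direction as the AP-1 genes, and its part in them was not tested.

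**Figure D4:**
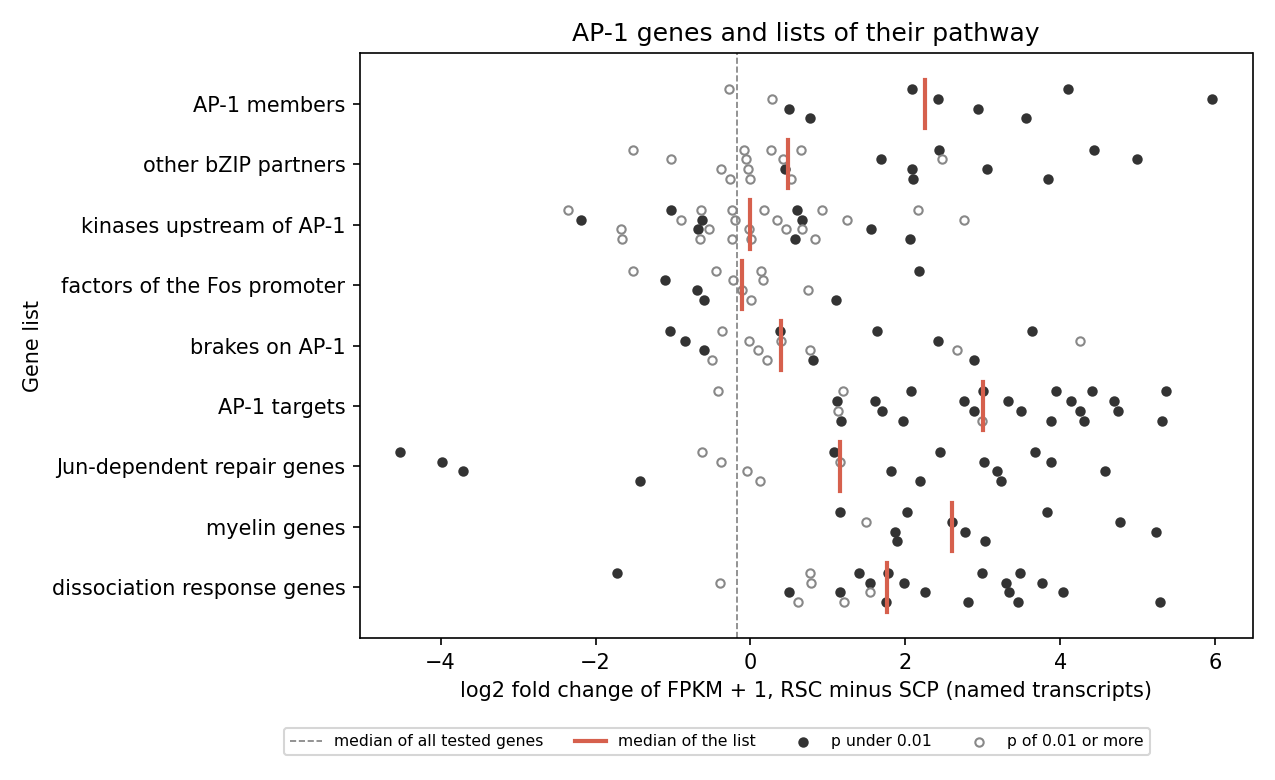
Log2 fold change of every tested gene of the AP-1 set and of 8 lists around it, RSC minus SCP on the log2(FPKM + 1) scale from named transcripts, with filled points for p under 0.01, red bars for the median of each list and a dashed line for the median of all tested genes (-0.17). The medians of the AP-1 genes (2.25), AP-1 targets (3.00) and myelin genes (2.60) lie far to the right, and those of the kinases (-0.01) and Fos promoter factors (-0.11) lie near the dashed line.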

How the data were processed

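RNA of 3 SCP and 3 RSC samples was sequenced as stranded mRNA libraries. Per the labels' processing notes the authors used FastQC 0.11.2, TopHat2 2.1.0 and Cufflinks 2.2.1 on the rat genome rn6. For each sample the authors deposited transcript FPKM, normalized by Cufflinks for transcript length and mapped fragments, with the coverage (signal) of each transcript, from which relative depth was taken. The tables hold no counts, so no counting error can be given, and how Cufflinks divided shared or antisense reads is not given in the sources used here. From every sample 77 transcripts whose names had turned into dates were left out.

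Here FPKM of named transcripts were summed by symbol. As a second estimate, unnamed transcripts were added to the gene of the same Cufflinks gene identifier that they overlap most. Symbols with a mean of at least 1 FPKM entered limma 3.58.1 (R 4.3.3) as log2(FPKM + 1), with a variance trend and no block. The test was two-sided, and p-values were adjusted after Benjamini and Hochberg across every tested gene. Adding 1 understates the change of low genes. Calls used an unadjusted p under 0.01, as in the study's methods. On simulated data for 13003 genes, 91% of 200 genes changed by a log2 fold change of 3 were called, all in the right direction, and so were 1.09% of the others. The work was set to stop had too few changed or too many unchanged genes been called. The simulated spread was normal and held no signal moved to unnamed transcripts, so 1.09% is not an error rate for the calls here.

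The 10 genes and all lists were chosen with earlier results of these data known, and the lists are from general knowledge, so no test over a list was run. Named are the 10 members, from each list the 2 called genes at either end of the log2 fold changes, marker genes, and the gene nearest in pattern to each of the 5 members with the largest called change. A few genes chosen in this way are left out here. Ncam1 and Igfbp2 were named, and TATAAA was searched, after their values were seen. The AP-1 site, cAMP response element and CArG box were searched on both strands of the RefSeq promoter windows. Alternatives were another pseudocount, other filters, scalings and thresholds, no variance trend, a replicate block, the highest transcript per gene, unnamed transcripts, values of 0 left out, and each sample left out.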

Additional observations from a re-analysis of the deposited data

How the results depend on the processing

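Of 16 alternatives to the fit on named transcripts, all kept Atf3, Fos, Fosl1, Fosl2 and Junb called higher in RSCs. The number of AP-1 genes called was 5 to 8 with single samples left out, lowest without RSC replicate 3, where Jund, Fosb and Jdp2 were not called. Jun turned from -0.28 to 0.63 with unnamed transcripts and ranged from -0.71 to 0.54 with single samples left out, with 0.54 without RSC replicate 1. Batf3 turned from 0.28 to -0.49 with a pseudocount of 0.1 and ranged from -0.29 to 1.29 with single samples left out, negative without RSC replicate 1 (-0.29) or RSC replicate 3 (-0.16). Without a variance trend Jund was not called, at an unadjusted limma p of 0.018. Adding unnamed transcripts raised the genes called from 5268 of 13003 to 8041 of 14022 tested. The leucine zipper partners called rose from 9 to 15 of 22. The kinases went from 9 of 30 to 22 of 35 and the brakes from 9 of 18 to 14 of 20. The kinases called were 4 at an adjusted p under 0.01, where 4105 of all 13003 tested genes were called, and 5 without a variance trend. With single samples left out 4 to 9 kinases were called, fewest without RSC replicate 3 (4), RSC replicate 2 (5) or SCP replicate 2 (5). With unnamed transcripts 8 to 9 AP-1 genes were called with single samples left out, and Jund (at an unadjusted limma p of 0.014 to 0.017), Jdp2 (0.012 to 0.014) or both were lost, Jund also after quantile normalization (at 0.015). These values with unnamed transcripts under a further change were added after seeing the data. Median-of-ratios scaling moved the median of all genes from -0.17 to 0.02 and the share of called genes that were higher in RSCs from 44.6% to 56.1% (40.4% to 53.9% with unnamed transcripts), and no AP-1 gene changed direction with it. Deviations of same-numbered samples from their group means correlated at -0.005 to 0.044 over 13003 genes. A correlation over all genes cannot tell whether same-numbered samples shared a preparation that acted on few genes. With the replicate number as a block 4275 genes and 8 AP-1 genes were called, and with unnamed transcripts 9, without Jdp2, at an unadjusted limma p of 0.015. The cause of these shifts was not tested. Since the tables hold no counts, the limits set by depth are unknown. The values of Batf3, Fosl1 and Fosl2 in SCPs, at a few FPKM or less, are among the least certain. The half-width of the Cufflinks interval was 72.2% of the value for Fosl2 in SCP replicate 1. For Fosl1 it was 50.7% and 54.9% in SCP replicates 1 and 3.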

Other observations

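Fosb, Jdp2 and Batf3 have more than 1 named transcript whose use differed between samples as Cufflinks divided the reads. Fosb has 2, of 3251 and 3876 bases. The longer one was read at 6.12 FPKM in SCP replicate 1 and 13.6 FPKM in SCP replicate 3, beside 6.81 and 16.1 FPKM for the shorter one. SCP replicate 2 and all RSC samples had the shorter one alone among named transcripts. Jdp2 has 3 named transcripts, and the one of 1528 bases was the only one above 0 in RSCs, at 15.0, 19.2 and 17.8 FPKM. In SCP replicate 1 the Jdp2 transcript of 881 bases was read at 5.81 FPKM and the one of 1528 bases at 2.63 FPKM. Batf3 was read from its transcripts of 402 and 775 bases in SCP replicates 1 and 3 and from the one of 775 bases alone in SCP replicate 2 and RSC replicates 1 and 3. No test was made on these forms.

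Other marker sums also differed between the groups. The 13 Schwann cell markers summed to 564 to 689 FPKM in SCPs and 2345 to 2913 FPKM in RSCs. Of 12 tested 6 were called higher in RSCs, 2 higher in SCPs and 4 not called. Among all tested genes 18.1% were called higher in RSCs and 22.4% in SCPs. Among these markers S100b, a calcium-binding protein gene of maturing Schwann cells, stood at 3.21 to 19.3 FPKM in SCPs and 782 to 924 FPKM in RSCs. Sox10, given above, was lower in RSCs than in SCPs. The summed FPKM of 10 skeletal muscle markers was 88.8 to 337 in SCPs and 32.7 to 35.6 in RSCs, and that of 10 neuron markers was 16.8 to 34.7 and 7.497 to 11.9. The 11 endothelial and mural markers summed to 103 to 296 FPKM in SCPs and 183 to 258 FPKM in RSCs, so those ranges overlapped.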
